A study of Mus musculus with 24 samples.

Results

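The 35 genes described here mark haematopoietic stem cells or act in them: transcription regulators such as Hlf, Mecom, Meis1 and Prdm16, surface proteins such as Slamf1, Procr, Kit and Esam, secreted factors, transporters and intracellular proteins such as Fgd5 and Socs2. They were taken by name from a list of stem cell identity genes and matched to probe sets annotated to a single gene symbol on Affymetrix mouse expression arrays. Of the 35 genes, 34 had such a probe set, out of 18194 genes on the array, and 33 passed the filter on low signal, out of 12745 genes tested. Ly6a, which encodes the surface marker Sca-1, was not analysed here, and Sox17, a transcription factor of fetal stem cells, stayed below the filter, with log2 intensities of 3.30 to 4.59 over all arrays.

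All cells were sorted from marrow, and the 129ola mice were 8 to 12 weeks old. Hypomorph mice carried the genotype Dnmt1-/chip, a null allele opposite the chip allele, and wildtype mice were Dnmt1+/+. B cell progenitors came from wildtype mice alone (2 arrays). Myeloid progenitors (MP) were measured on 3 hypomorph and 3 wildtype arrays, and haematopoietic stem cells (HSC) on 3 hypomorph and 2 wildtype arrays. No Cre or transgene is named for any group, and the sorting gates are not given in the sources used here, so whether a member such as Kit, Cd34 or Slamf1 was itself used to sort the cells is unknown. No label ties an array to an animal of its own, so every p-value reflects the variation among the arrays alone. The Y-linked gene Eif2s3y was at 2.35 to 2.87 on 1 array each of wildtype HSC, hypomorph MP, wildtype MP and B progenitors and at 6.95 to 10.16 on the other arrays, so within these 4 groups the arrays were not all repeats of the same RNA. Values are RMA intensities read as log2 from their range, array medians lay between 4.56 and 4.74, and precision is limited by how few arrays there were. In such bulk samples, fewer cells of a type and less RNA per cell cannot be told apart.

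Stem cells of the adult marrow are mostly out of cycle and keep themselves by self-renewal while giving rise to all blood lineages. A small set of transcription factors keeps this state, surface receptors hold the cells in their niche, and efflux pumps and aldehyde dehydrogenases clear toxic compounds. Dnmt1 encodes the methyltransferase that copies CpG methylation onto newly made DNA, and promoters rich in CpG are usually free of methylation while promoters poor in CpG are often methylated.

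The 6 promoters below are shown because they belong to the members at either end of the HSC genotype comparison: the 3 that fell most in hypomorph HSC and have an entry in the promoter table used (Fgd5, Robo4 and Hlf), and the 3 members kept at their level with the narrowest intervals (Nr4a1, Erg and Gata3). Each window is RefSeq sequence of GRCm38.p6, runs 5′ to 3′ on the strand of the gene from 250 bases before to 50 bases after the annotated start, and has every CG dinucleotide in capitals. Fgd5 lies at chr6:91978715-91979014 on the plus strand, Robo4 at chr9:37401722-37402021 on the plus strand and Hlf at chr11:90390868-90391167 on the minus strand.
Fgd5: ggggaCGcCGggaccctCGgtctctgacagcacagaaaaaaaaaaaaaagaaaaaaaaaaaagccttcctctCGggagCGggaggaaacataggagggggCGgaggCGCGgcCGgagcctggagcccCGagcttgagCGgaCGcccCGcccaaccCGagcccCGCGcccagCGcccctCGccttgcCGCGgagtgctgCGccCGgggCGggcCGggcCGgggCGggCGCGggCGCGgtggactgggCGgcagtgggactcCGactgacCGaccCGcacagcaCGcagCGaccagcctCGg
Robo4: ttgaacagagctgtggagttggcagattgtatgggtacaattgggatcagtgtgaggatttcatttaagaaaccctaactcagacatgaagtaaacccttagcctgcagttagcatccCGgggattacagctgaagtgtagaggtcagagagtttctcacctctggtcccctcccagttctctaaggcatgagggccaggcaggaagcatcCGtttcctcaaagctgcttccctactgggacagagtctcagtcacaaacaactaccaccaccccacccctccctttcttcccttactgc
Hlf: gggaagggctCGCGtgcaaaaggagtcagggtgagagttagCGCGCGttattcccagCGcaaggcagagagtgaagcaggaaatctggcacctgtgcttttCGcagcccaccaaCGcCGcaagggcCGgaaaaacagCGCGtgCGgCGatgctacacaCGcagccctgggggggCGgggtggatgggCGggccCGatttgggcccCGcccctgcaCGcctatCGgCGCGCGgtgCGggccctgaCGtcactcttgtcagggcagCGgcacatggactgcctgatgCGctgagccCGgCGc

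Nr4a1 lies at chr15:101266596-101266895 on the plus strand, Erg at chr16:95586544-95586843 on the minus strand, at the 5′-most of its 3 starts, and Gata3 at chr2:9878551-9878850 on the minus strand.
Nr4a1: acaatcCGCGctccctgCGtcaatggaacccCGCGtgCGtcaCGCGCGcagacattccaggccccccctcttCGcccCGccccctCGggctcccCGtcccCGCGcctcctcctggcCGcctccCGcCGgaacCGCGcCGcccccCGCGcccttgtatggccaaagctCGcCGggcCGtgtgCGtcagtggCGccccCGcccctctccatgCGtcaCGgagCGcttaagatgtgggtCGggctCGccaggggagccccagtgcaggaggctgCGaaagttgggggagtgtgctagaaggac
Erg: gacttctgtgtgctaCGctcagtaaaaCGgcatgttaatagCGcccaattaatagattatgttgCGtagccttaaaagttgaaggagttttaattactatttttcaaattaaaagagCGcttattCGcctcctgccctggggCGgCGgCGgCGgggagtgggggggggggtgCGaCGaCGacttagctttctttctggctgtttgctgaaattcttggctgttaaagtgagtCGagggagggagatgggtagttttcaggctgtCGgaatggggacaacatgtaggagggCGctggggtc
Gata3: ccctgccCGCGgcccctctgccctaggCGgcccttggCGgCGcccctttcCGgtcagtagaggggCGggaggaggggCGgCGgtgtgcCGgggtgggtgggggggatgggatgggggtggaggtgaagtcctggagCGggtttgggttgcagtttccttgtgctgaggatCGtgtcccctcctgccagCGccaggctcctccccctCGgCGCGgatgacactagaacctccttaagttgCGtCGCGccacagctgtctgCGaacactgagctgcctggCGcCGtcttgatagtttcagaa

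The members that fell did not share a single kind of promoter. The Fgd5 window held 37 CG dinucleotides, a number reached by 5.58% of the 32851 windows in the table, and the Hlf window held 30, reached by 11.7%. The Robo4 window held 2, and 85.9% of windows held as many or more. Among the members kept, the windows of Nr4a1, Erg and Gata3 held 35, 16 and 22. Over all windows the median was 7. Of the 9 members that fell, 6 had a window, with a median of 4.5 and a range of 2 to 37 CG dinucleotides, against a median of 22 and a range of 7 to 35 in the 7 windows of the members kept (the 5′-most start of each gene). These counts describe a few genes, no test was run on them, and methylation itself was not measured here.

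As a check of the labels, Dnmt1 was low on every hypomorph array. In HSC its level was 9.02, 8.48 and 9.31 on the hypomorph arrays, against 11.80 and 11.58 on the wildtype arrays, a log2 difference of -2.75 (SE 0.24, limma adjusted p = 2.835e-05). In MP the log2 difference was -3.34 (SE 0.22, limma adjusted p = 7.228e-06). The cell labels were checked with marker lists, each summarised as the mean log2 level of its genes on an array. A B lineage list reached 10.57 to 10.58 in B progenitors and 5.32 at most on any other array, and a myeloid progenitor list reached 11.38 to 11.57 in MP and 8.15 at most elsewhere.

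**Figure D1:**
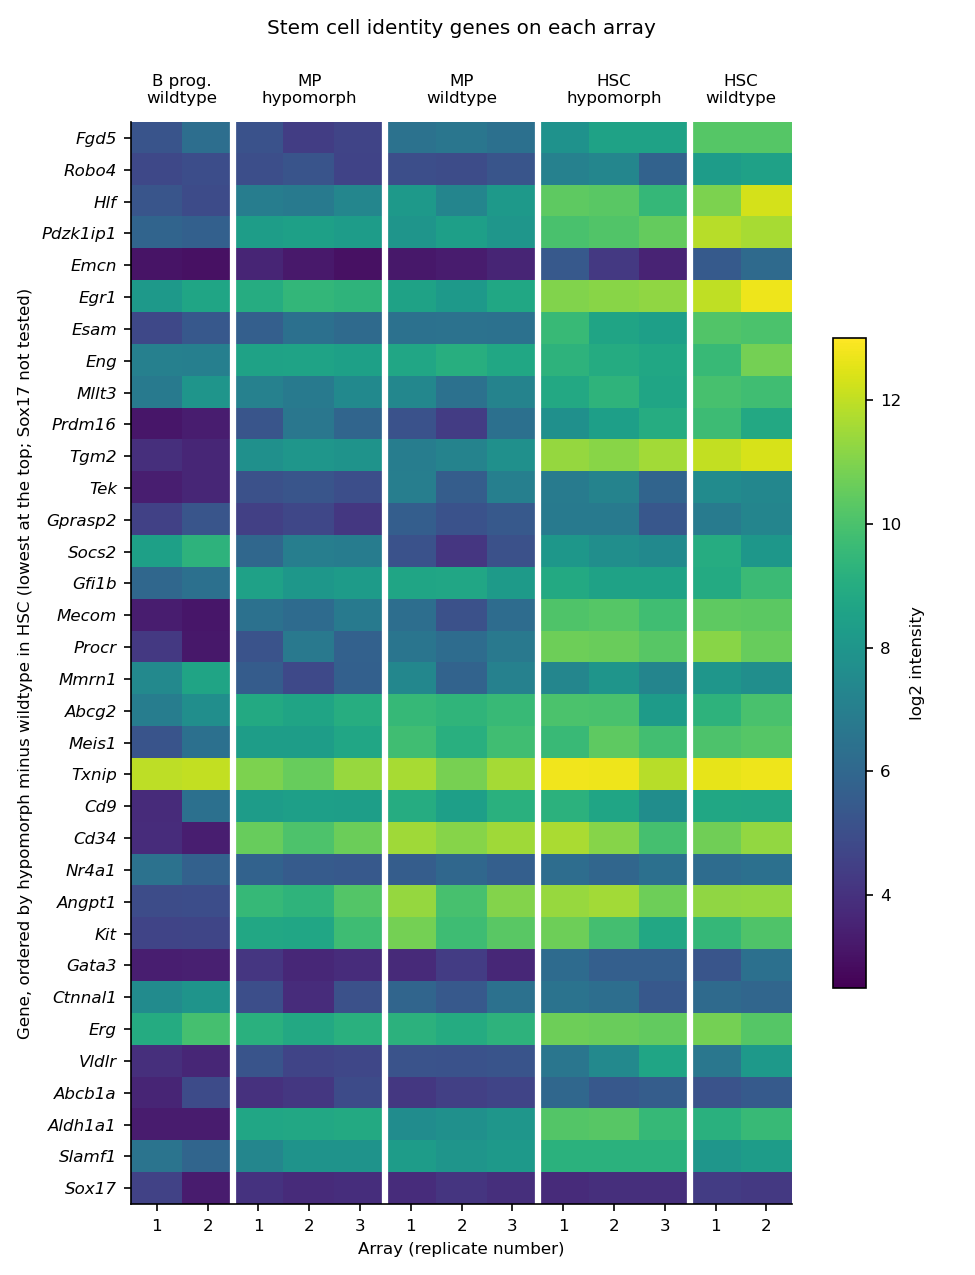
Log2 intensity of 34 stem cell identity genes (rows, ordered by the HSC genotype difference with the lowest at the top) on each of 13 arrays (columns, numbered by replicate). Rows such as Tgm2, Mecom and Procr are bright in HSC and dark in B progenitors, and Sox17 is dark throughout.

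The 34 members averaged 5.44 to 5.71 on the B progenitor arrays, 6.83 to 6.99 on hypomorph MP arrays, 6.94 to 7.37 on wildtype MP arrays, 8.30 to 8.77 on hypomorph HSC arrays and 9.00 to 9.22 on wildtype HSC arrays. The heat map of levels by array shows the members one by one, and the order did not hold for all of them: Ctnnal1, Socs2 and Mmrn1 had their highest group mean in B progenitors. The HSC arrays were the highest of the series by this average, and the hypomorph HSC arrays lay below both wildtype HSC arrays and above all MP arrays.

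The central comparison asked which of these genes differ in HSC when Dnmt1 is reduced. In hypomorph HSC 9 members fell, among them Fgd5, Pdzk1ip1, Robo4 and Hlf, and 1 rose, Slamf1. A further 8 were kept. Kept means here not called, with the 95% interval of the difference within -1 and 1 on the log2 scale. The remaining 15 were undetermined, which means not called, with an interval that reached past -1 or 1. Some of these intervals were wide, and others were narrower but lay to 1 side. Among all 12745 genes tested, 10.8% were called, 5.41% lower and 5.37% higher in hypomorph HSC, and 55.5% met the rule for kept genes. The median difference was -0.33 over the members and -0.11 over all genes, and 26 of the 33 members lay below 0. A gene is called where the limma adjusted p, by Benjamini and Hochberg over all genes tested, is under 0.05, and all adjusted p-values in the following paragraphs are of this kind.

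**Figure D2:**
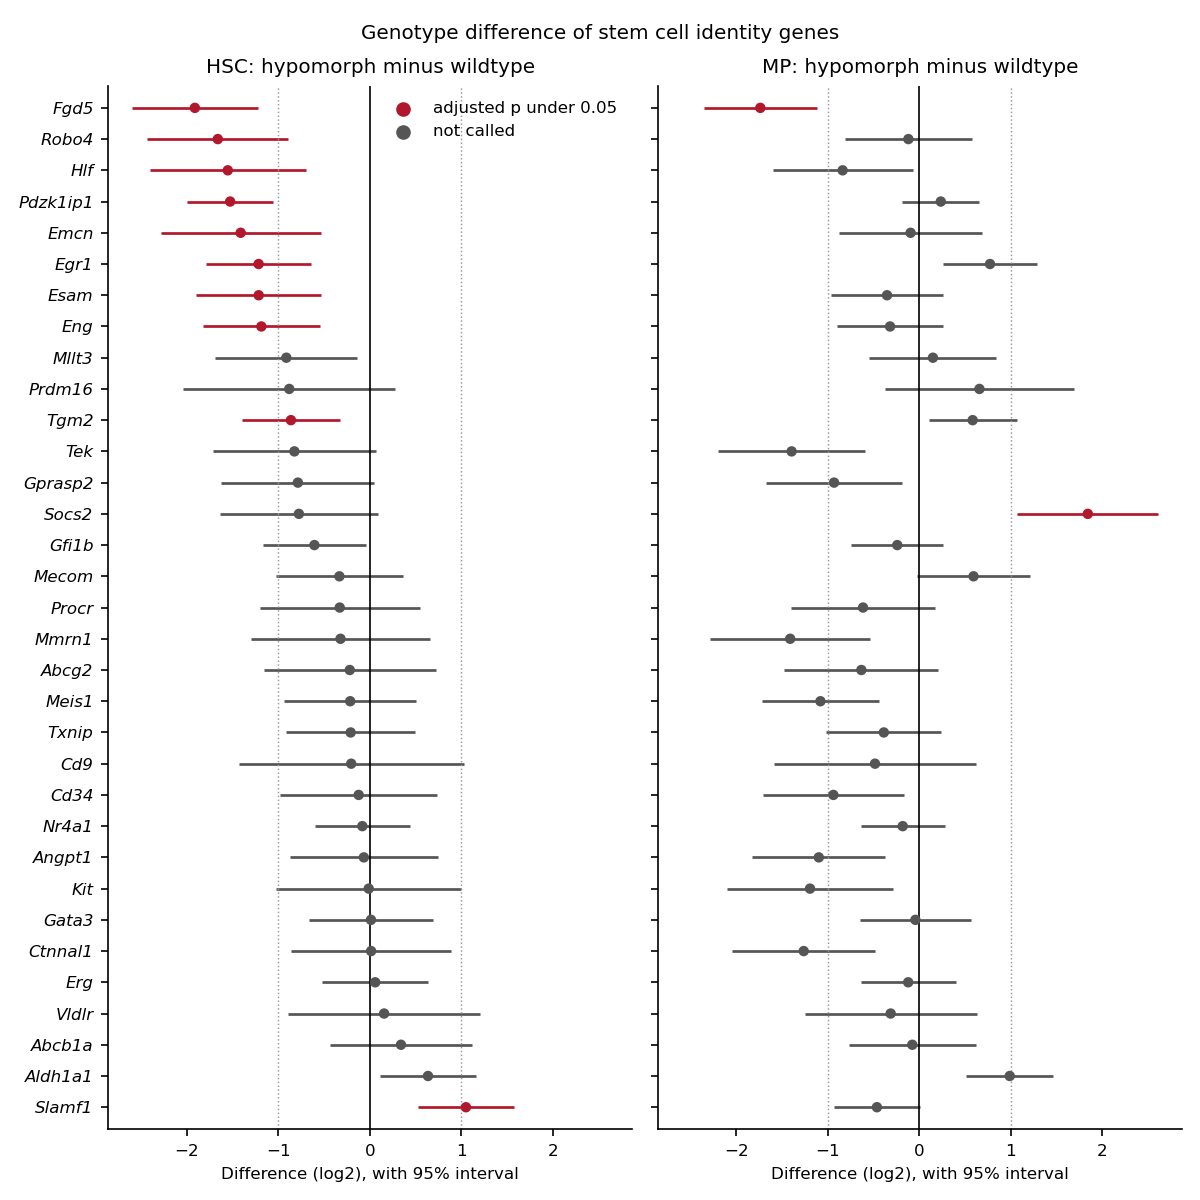
Hypomorph minus wildtype difference on the log2 scale for 33 stem cell identity genes in HSC (left) and MP (right), in the order of the HSC difference. Points are limma estimates, lines are 95% intervals, red marks an adjusted p under 0.05 and the dotted lines stand at -1 and 1. Fgd5, at -1.91 in HSC and -1.74 in MP, is the gene called in both panels.

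The intracellular proteins gave 3 of the 9 falls. Fgd5 encodes an exchange factor for small GTPases and is used as a reporter gene for mouse HSC. Its level was 7.86, 8.56 and 8.53 in hypomorph HSC, against 10.24 and 10.22 in wildtype HSC, so all hypomorph arrays lay well below both wildtype arrays. The log2 difference was -1.91 (SE 0.32, adjusted p = 0.00238), or 3.76-fold lower, and the call held under all 22 alternative settings. Among these settings, leaving out an MP or B progenitor array does not change an HSC difference. It acts only on the estimate of spread, which all arrays share, so these are weaker checks of the HSC calls.

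Pdzk1ip1 encodes a small membrane-associated protein that binds PDZ domains. It had levels of 10.00, 10.16 and 10.53 in hypomorph HSC, against 11.88 and 11.63 in wildtype HSC. The groups were apart and each was tight, and the log2 difference was -1.53 (SE 0.22, adjusted p = 8.62e-04). A second probe set of Pdzk1ip1 gave -2.11. Its call was lost in 1 of 22 settings, the fit of the HSC arrays alone (adjusted p = 0.0541).

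Tgm2, a transglutaminase that cross-links proteins, was among the brightest members in HSC. It had levels of 11.34, 11.12 and 11.54 in hypomorph HSC, against 12.03 and 12.36 in wildtype HSC, a log2 difference of -0.86 (SE 0.25, adjusted p = 0.0414). The groups did not overlap, but this was the smallest fall and its call was lost in 10 of 22 settings. The probe sets of Tgm2 disagreed: 4 of the 5 past the filter were lower in hypomorph HSC, and the other had mean levels of 7.62 in hypomorph and 6.44 in wildtype HSC. The mean of its probe sets gave -0.57.

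The other intracellular members were not called. Txnip, which binds thioredoxin and limits glucose uptake, and Ctnnal1, a relative of the alpha-catenins, were kept, with differences of -0.21 and 0.01. Gprasp2, a protein that sorts receptors after endocytosis, stood at -0.79 (95% interval -1.62 to 0.05), and Socs2, a feedback inhibitor of cytokine receptors, at -0.77 (-1.64 to 0.09).

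Among the surface proteins and receptors, 4 of 11 tested members fell and 1 rose. The 4 were Robo4, Emcn, Esam and Eng. Endothelial cells also express these genes, as they do the members Tek, Procr and Cd34, which were not called. Robo4, a receptor of the roundabout family that takes part in the homing of stem cells, had levels of 7.10, 7.32 and 5.80 in hypomorph HSC, against 8.29 and 8.52 in wildtype HSC. All hypomorph arrays lay below wildtype and array 3 lay far below the other hypomorph arrays. The log2 difference was -1.66 (SE 0.36, adjusted p = 0.0107), with -1.09 when arrays were weighted by their quality, and the call was lost in 2 of 22 settings.

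Emcn, which encodes the sialomucin endomucin, had levels of 5.41, 4.24 and 3.56 in hypomorph HSC, against 5.49 and 6.13 in wildtype HSC. The highest hypomorph array came close to the lower wildtype array, and the hypomorph values spread widely. The log2 difference was -1.41 (SE 0.41, adjusted p = 0.0407), and the call was lost in 15 of 21 settings. Of the hypomorph HSC arrays 2, and all MP and B progenitor arrays, were below 4.64, the filter value. Emcn thus passed the filter through the HSC arrays where it was high, its difference is one against dim signal, and without it the falls number 8.

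Esam, an adhesion molecule of the immunoglobulin family and a marker of HSC, had levels of 9.57, 8.63 and 8.42 in hypomorph HSC, against 10.13 and 10.04 in wildtype HSC. Every hypomorph array was lower than wildtype, with a log2 difference of -1.21 (SE 0.32, adjusted p = 0.0272), and the call was lost in 6 of 22 settings. Eng, the co-receptor of the TGF-beta family called endoglin, had levels of 9.29, 8.98 and 8.75 in hypomorph HSC, against 9.58 and 10.81 in wildtype HSC. The wildtype arrays of Eng lay further from each other than the hypomorph arrays did. Its log2 difference was -1.19 (SE 0.30, adjusted p = 0.0228), which became -0.57 without wildtype HSC array 2 and -1.80 without wildtype HSC array 1. The call of Eng was lost in 4 of 22 settings. A second probe set of Eng gave -1.38.

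Markers of endothelial cells were examined beside these falls. Of 13 genes on an endothelial list, 9 were tested, 1 fell (Cldn5, a tight junction protein, at -0.86) and none rose. The mean level of the list was 4.88 to 5.02 in hypomorph HSC, against 5.07 to 5.08 in wildtype HSC. Of the 13 genes, 6 were below 4.64, the median of all values, on every hypomorph HSC array and 4 on every wildtype HSC array. Cdh5, the cadherin of endothelial cells, had levels of 3.38 to 3.69 in hypomorph and 3.64 to 3.72 in wildtype HSC, and Lyve1 had 3.30 to 3.60 in hypomorph and 3.62 to 3.82 in wildtype HSC. Egfl7, which HSC also express, was by far the brightest, at 9.73 to 10.67 in hypomorph and 10.48 to 10.59 in wildtype HSC. Flt1, Flt4 and Ptprb were above 4.64 on every HSC array. Plvap lay higher in hypomorph HSC, at 5.54 to 6.155, against 4.74 to 5.50 in wildtype HSC, a log2 difference of 0.65 that was not called. Called or not, 7 of the 9 genes tested lay below 0 and 2 above.

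Slamf1 encodes CD150, the SLAM family receptor used to mark HSC. It was 9.23, 9.20 and 9.23 in hypomorph HSC, against 8.03 and 8.30 in wildtype HSC. The hypomorph arrays were nearly identical to each other and all higher than wildtype, with a log2 difference of 1.05 (SE 0.24, adjusted p = 0.0148). The call was lost when either wildtype HSC array was left out and in the fit of the HSC arrays alone. A second probe set gave 0.99 (adjusted p = 0.0785 over all probe sets), and the mean over all of its probe sets, dim ones included, gave 0.64.

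Of the other surface members, Cd34, the sialomucin of early progenitors, was kept at -0.12 (95% interval -0.98 to 0.74). Kit, the receptor for stem cell factor, had a difference of -0.01, but its interval of -1.02 to 1.00 lay just outside the limits for a kept gene, with levels of 10.68, 9.87 and 8.81 in hypomorph HSC, against 9.48 and 10.12 in wildtype HSC. A dimmer probe set of Kit gave -0.72 (SE 0.33, adjusted p = 0.204 over all probe sets). Procr, the endothelial protein C receptor and a marker of HSC (-0.33), Tek, the angiopoietin receptor Tie2 (-0.82), the tetraspanin Cd9 (-0.20) and the lipoprotein receptor Vldlr (0.16) were undetermined. A dimmer probe set of Vldlr had means of 4.35 in hypomorph and 6.15 in wildtype HSC, a log2 difference of -1.80 (adjusted p = 0.00515 over all probe sets), so the probe sets of this gene gave different calls.

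Of 8 transcription regulators tested, 1 fell. Hlf, a leucine zipper factor that keeps HSC out of cycle, had levels of 10.41, 10.29 and 9.51 in hypomorph HSC, against 10.94 and 12.30 in wildtype HSC. All hypomorph arrays were lower than wildtype, and the wildtype arrays differed from each other by more than 1 log2 unit. The log2 difference was -1.55 (SE 0.40, adjusted p = 0.0245), and it was -0.87 without wildtype HSC array 2, with the call lost. The call was lost in 5 of 22 settings. A second probe set of Hlf had means of 9.74 in hypomorph and 10.65 in wildtype HSC, a log2 difference of -0.91 (SE 0.36) that was not called (adjusted p = 0.145 over all probe sets).

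Meis1, a homeobox factor of HSC (-0.21), the ETS factor Erg (0.06) and the zinc finger factor Gata3 (0.01) were kept. A second probe set of Meis1 had means of 8.97 in hypomorph and 9.86 in wildtype HSC, and its difference of -0.89 (SE 0.42, adjusted p = 0.223 over all probe sets) was too imprecise to count as kept. Erg had levels of 10.68, 10.59 and 10.47 in hypomorph HSC, against 10.79 and 10.25 in wildtype HSC, so the hypomorph arrays lay between the wildtype arrays. Gata3 was at 5.67 to 6.15 in hypomorph HSC, against 5.27 and 6.39 in wildtype HSC, so its wildtype arrays lay far apart. Its interval rests on a spread shared with MP and B progenitor arrays, where Gata3 was dim, at 4.35 and 3.44 at most. Mllt3, a chromatin reader that supports the self-renewal of HSC, had levels of 8.84, 9.31 and 8.68 in hypomorph HSC, against 9.93 and 9.78 in wildtype HSC. Its groups did not overlap, and its difference of -0.91 (95% interval -1.69 to -0.14) was the largest among the members that were not called (adjusted p = 0.123).

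Prdm16, a zinc finger protein with a PR domain that HSC need for their maintenance, had levels of 7.77, 8.44 and 8.99 in hypomorph HSC, against 9.71 and 8.85 in wildtype HSC. The groups overlapped, and the difference was -0.88 (-2.04 to 0.28, adjusted p = 0.325). A second probe set of Prdm16 separated them, with means of 6.63 in hypomorph and 8.04 in wildtype HSC and a log2 difference of -1.41 (SE 0.31, adjusted p = 0.0145 over all probe sets). Gfi1b, a zinc finger repressor needed in erythroid cells and megakaryocytes and active in HSC, had levels of 8.90, 8.55 and 8.56 in hypomorph HSC, against 8.90 and 9.65 in wildtype HSC. Hypomorph array 1 came within 0.01 of wildtype array 1 for Gfi1b, and the difference was -0.61 (-1.17 to -0.04, adjusted p = 0.158). Mecom, which encodes the zinc finger factor Evi1, stood at -0.33 (-1.02 to 0.36).

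The 2 immediate early factors differed. Egr1, which in mouse HSC restrains division and mobilisation, had levels of 11.03, 11.15 and 11.26 in hypomorph HSC, against 11.99 and 12.73 in wildtype HSC. The hypomorph arrays were close together and below wildtype, with a log2 difference of -1.22 (SE 0.27, adjusted p = 0.0119), and the call was lost in 2 of 22 settings. Nr4a1, an orphan nuclear receptor, had levels of 6.23, 5.97 and 6.38 in hypomorph HSC, against 6.20 and 6.36 in wildtype HSC. Its groups overlapped and its difference of -0.08 (95% interval -0.60 to 0.43) was kept, with the narrowest interval of any member that was not called. Of 16 tested genes on a wider list of immediate early genes, 3 fell and none rose, among them Junb (-1.30) and Ier3 (-0.96), and the list contains genes that respond within minutes to cell handling. Whether handling had a part in the change of Egr1 was not tested.

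None of the secreted proteins or transporters was called. Angpt1, the ligand of Tek, was kept at -0.06, and Mmrn1, a multimerin of platelets and endothelium, was undetermined at -0.32. Abcg2, the pump behind the side population of HSC, stood at -0.22 and the P-glycoprotein gene Abcb1a at 0.34. Aldh1a1, a retinaldehyde dehydrogenase, had levels of 10.21, 10.26 and 9.53 in hypomorph HSC, against 9.15 and 9.58 in wildtype HSC. Hypomorph array 3 fell between the wildtype arrays, and the difference was 0.64 (95% interval 0.11 to 1.17, adjusted p = 0.115).

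The arrays of a group did not overlap for 14 members that were lower and 1 that was higher in hypomorph HSC, and among all genes 22.4% and 13.2% did not overlap in these directions. Hypomorph HSC array 3 was the lowest of the 3 hypomorph HSC arrays for 22 of the 34 members, array 1 for 7 and array 2 for 5. Without hypomorph HSC array 2, 4 of the falls remained (Fgd5, Pdzk1ip1, Robo4 and Egr1). Without hypomorph HSC array 3, 5 of the falls remained (Fgd5, Pdzk1ip1, Robo4, Egr1 and Tgm2). The count rested most on wildtype HSC array 2, without which 2 falls remained, Fgd5 and Pdzk1ip1, and the fit of the HSC arrays alone, with 3 residual degrees of freedom, called only Fgd5. The arrays also differed in Eif2s3y, which was at 9.31, 6.95 and 8.10 on the hypomorph HSC arrays, against 8.68 and 2.35 on wildtype HSC arrays 1 and 2, and the part of this in the falls was not tested. The number of members kept, 8, ranged between 1, without wildtype HSC array 1, and 12, for the mean of the probe sets of a gene.

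**Figure D3:**
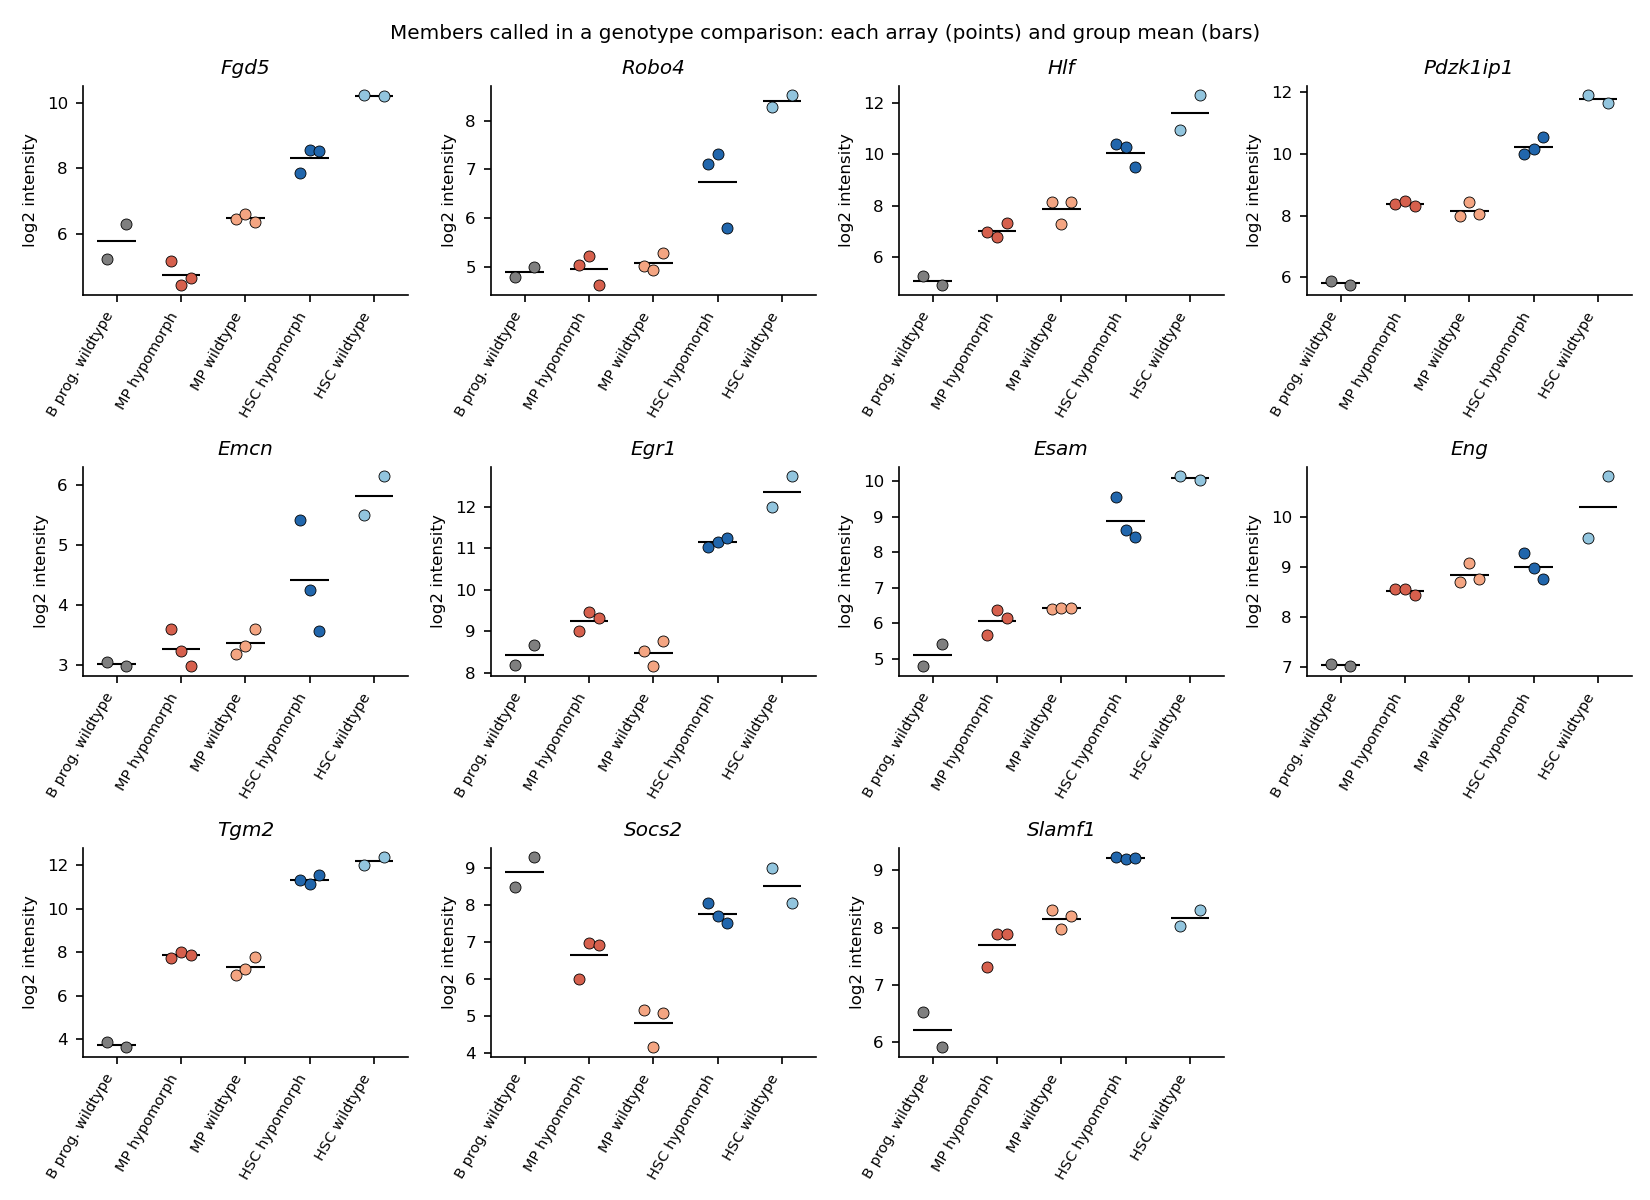
Log2 intensity of the 11 members called in HSC, in MP or in the difference between them, on each array (points) with the group mean (bars). Fgd5 separates the genotypes in HSC and in MP, while Pdzk1ip1 separates them in HSC, with hypomorph arrays at 10.00 to 10.53 against wildtype at 11.63 and 11.88, and overlaps in MP.

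In myeloid progenitors the same genotype comparison called 2 members, Fgd5 lower and Socs2 higher, while 0.588% of all genes were called, 0.251% lower and 0.337% higher. Fgd5 was dim in MP but still separated the genotypes, with levels of 5.16, 4.41 and 4.64 in hypomorph MP, against 6.45, 6.61 and 6.36 in wildtype MP. Its log2 difference was -1.74 (SE 0.29, adjusted p = 0.0102), and the call was lost without hypomorph MP array 2 or without wildtype MP array 1. Socs2 had levels of 6.01, 6.98 and 6.92 in hypomorph MP, against 5.15, 4.14 and 5.09 in wildtype MP. Every hypomorph array was above every wildtype array, with a log2 difference of 1.84 (SE 0.36, adjusted p = 0.0328). The mean over the probe sets of Socs2 gave 0.48 (adjusted p = 0.289), its call was lost in 9 of 22 settings, and a second probe set gave 0.76 (adjusted p = 0.334 over all probe sets).

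Counting the called ones, 10 members below 0 and 4 above 0 had an unadjusted p under 0.05 in MP, while among all genes 9.22% and 5.77% did in these directions. Of those that did not pass the adjusted threshold, the ones below 0 were Mmrn1 (-1.41), Tek (-1.40), Ctnnal1 (-1.26), Kit (-1.19), Angpt1 (-1.10), Meis1 (-1.08), Cd34 (-0.94), Gprasp2 (-0.93) and Hlf (-0.84), and their adjusted p-values ran between 0.143 and 0.299. Among them, the levels of Kit were 8.79, 8.72 and 9.74 in hypomorph MP, against 10.80, 9.74 and 10.29 in wildtype MP, where the highest hypomorph array reached the lowest wildtype array. A dimmer probe set of Kit gave 0.04, and a second probe set of Hlf had means of 7.57 in hypomorph and 6.81 in wildtype MP, a log2 difference of 0.76 (adjusted p = 0.325 over all probe sets), opposite in sign to the one used. Those above 0 were Aldh1a1 (0.99, adjusted p = 0.0727), Egr1 (0.77) and Tgm2 (0.58). The arrays of the genotypes did not overlap for 12 members lower and 3 higher in hypomorph MP, against 16.3% and 11.3% of all genes. The second probe set of Prdm16 was higher in hypomorph MP, with means of 6.15 in hypomorph and 4.45 in wildtype MP and a log2 difference of 1.70 (adjusted p = 0.0143 over all probe sets), while the brighter probe set gave 0.66 (adjusted p = 0.532 over genes).

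Whether the genotype effect differed between cell types was tested as the HSC effect minus the MP effect. This difference was called for 5 members, 4 below 0 and 1 above 0, and for 5.63% of all genes, 2.35% below 0 and 3.27% above 0. Pdzk1ip1 had levels of 8.36, 8.46 and 8.32 in hypomorph MP, against 7.97, 8.44 and 8.04 in wildtype MP. With these overlapping MP groups and the fall in HSC given above, its difference of effects was -1.76 (SE 0.29, adjusted p = 0.00577).

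Egr1 had levels of 9.00, 9.46 and 9.32 in hypomorph MP, against 8.53, 8.15 and 8.77 in wildtype MP. The hypomorph MP arrays all lay above wildtype, the reverse of the order in HSC, and the difference of effects was -1.99 (SE 0.36, adjusted p = 0.00908). This was not particular to Egr1. On the wider list of immediate early genes, 12 of 16 lay below 0 in HSC and 15 of 16 above 0 in MP, with none called in MP. The difference of effects was called below 0 for 4 of the 16, with a median of -1.16, against 2.35% of all genes. The calls of Pdzk1ip1 and Egr1 held under all 22 settings.

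Tgm2 had levels of 7.76, 8.03 and 7.89 in hypomorph MP, against 6.95, 7.21 and 7.77 in wildtype MP. The highest wildtype array reached the lowest hypomorph array, and the difference of effects was -1.44 (SE 0.34, adjusted p = 0.0254), with -0.88 for the mean of its probe sets. This call was lost in 6 of 22 settings. Socs2 had levels of 8.06, 7.69 and 7.50 in hypomorph HSC, against 8.99 and 8.06 in wildtype HSC. The highest hypomorph HSC array reached the lower wildtype array, and its difference of effects was -2.62 (SE 0.54, adjusted p = 0.0153). For the mean of the probe sets of Socs2 it was -0.80 (adjusted p = 0.0988).

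Slamf1 had the opposite sign. Its levels were 7.31, 7.88 and 7.89 in hypomorph MP, against 8.31, 7.97 and 8.20 in wildtype MP. All hypomorph MP arrays lay below wildtype, where the HSC arrays lay above. The MP difference of -0.46 was not called (adjusted p = 0.36 over all probe sets). The difference of effects was 1.51 (SE 0.33, adjusted p = 0.0184), with 0.83 for the mean of its probe sets. This call was lost in 4 of 22 settings. The second probe set of Slamf1 gave 0.02 in MP and a difference of effects of 0.96 (adjusted p = 0.21 over all probe sets). For Fgd5 the difference of effects was -0.17, with an interval of -1.10 to 0.75. The hypomorph MP levels of Fgd5, 4.41 to 5.16, lie near the filter value of 4.64, where a difference can be understated, so this comparison of effects is not exact.

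**Figure D4:**
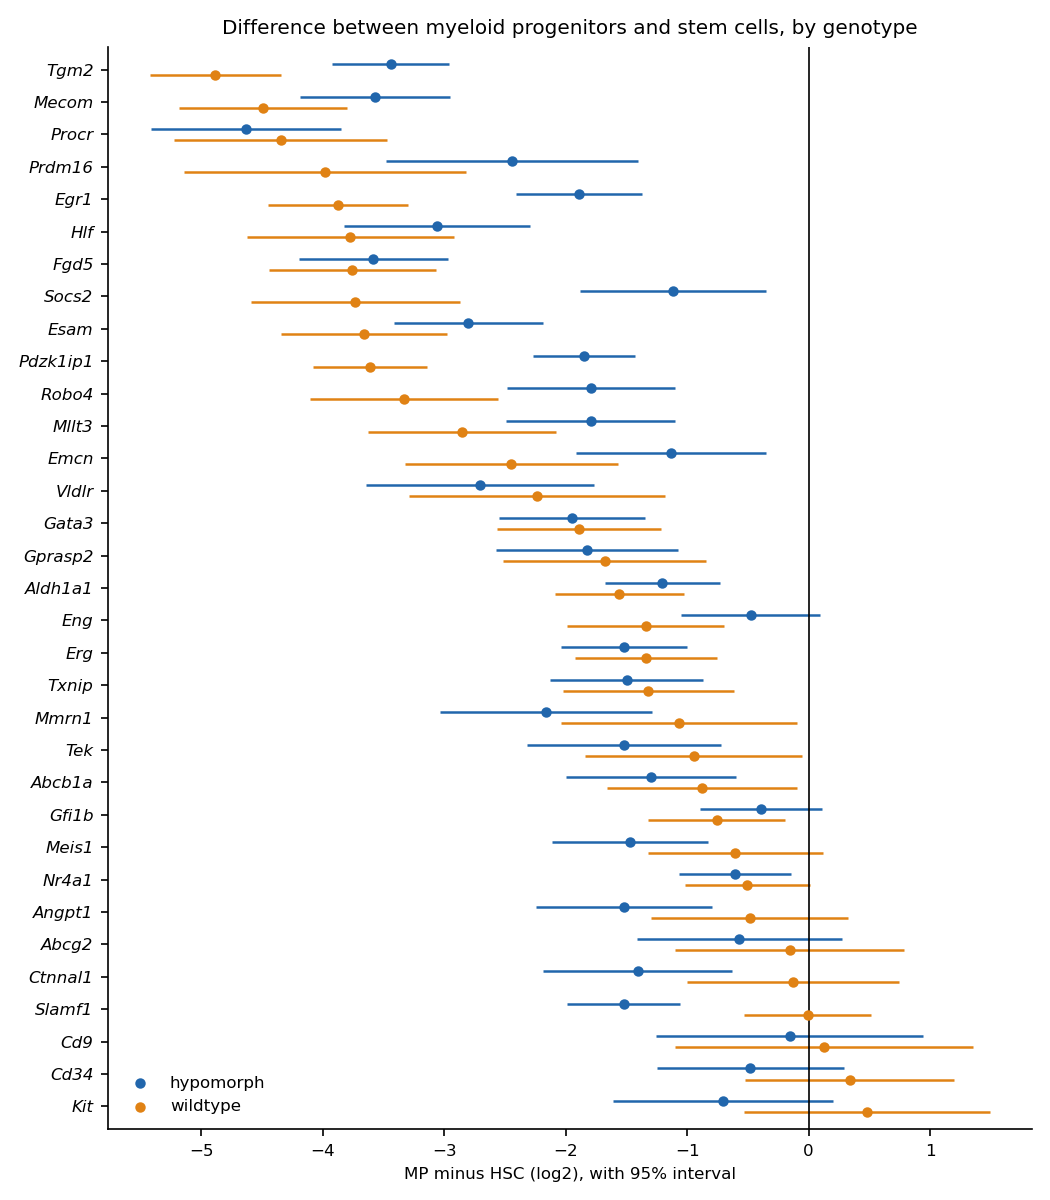
MP minus HSC difference on the log2 scale for 33 stem cell identity genes, in hypomorph (blue, upper line) and wildtype (orange, lower line) cells, ordered by the wildtype difference. Points are limma estimates and lines 95% intervals. Most points lie left of 0, and those of Tgm2, Egr1, Socs2 and Pdzk1ip1 stand closer to 0 in hypomorph cells, at -3.44, -1.89, -1.12 and -1.85.

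Most members marked HSC against MP in either genotype. In hypomorph cells 24 of 33 members were lower in MP than in HSC and none was higher, while among all genes 11.7% were called, 7.47% lower and 4.18% higher. In wildtype cells 21 of 33 were lower in MP and none was higher, while among all genes 31.8% were called, 18.0% lower and 13.8% higher. Both counts of 0 higher members also held under all 22 alternatives. Emcn and Gata3 passed the filter through HSC arrays alone, with levels of 3.60 and 4.35 at most in MP. The filter thus largely set their direction, and their place among the lower members is no result of its own. The comparisons share no arrays between genotypes, but each shares its HSC and MP arrays with the genotype comparisons above.

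In hypomorph cells the members furthest below 0 were Procr (-4.63, SE 0.36), Fgd5 (-3.58, SE 0.29) and Mecom (-3.57, SE 0.29). In wildtype cells they were Tgm2 (-4.88, SE 0.25), Mecom (-4.49, SE 0.32) and Procr (-4.35, SE 0.41). Procr had levels of 5.18, 6.74 and 5.76 in hypomorph MP and 6.59, 6.19 and 6.74 in wildtype MP, against 10.70, 10.59 and 10.29 in hypomorph HSC and 11.15 and 10.56 in wildtype HSC. Mecom had levels of 6.41, 6.16 and 6.84 in hypomorph MP and 6.30, 5.12 and 6.22 in wildtype MP, against 10.11, 10.22 and 9.79 in hypomorph HSC and 10.39 and 10.36 in wildtype HSC. Every HSC array of these genes was far above every MP array, in hypomorphs as in wildtype. The MP minus HSC differences of Kit, Cd34 and Cd9 were -0.70, -0.48 and -0.15 in hypomorph cells and 0.48, 0.34 and 0.13 in wildtype cells, and none was called. The dimmer probe set of Kit had means of 6.28 in wildtype MP and 6.73 in wildtype HSC.

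Against B progenitors the members separated more widely. In wildtype cells 28 of 33 were lower in B progenitors than in HSC and 1 was higher, while among all genes 45.0% were called, 30.2% lower and 14.8% higher. The members furthest below 0 were Tgm2 (-8.43), Cd34 (-7.41) and Procr (-7.14). All 3 were below the filter value on both B progenitor arrays, so these are differences against dim signal and neither their sizes nor their order is exact. For Emcn and Gata3, at 3.04 and 3.44 at most in B progenitors, the filter largely set the direction here too. Cd34 had levels of 3.83 and 3.40 in B progenitors, against 10.74 and 11.31 in wildtype HSC. The member that was higher was Ctnnal1, with levels of 7.58 and 7.93 in B progenitors, against 6.12 and 5.98 in wildtype HSC, a log2 difference of 1.70 (SE 0.44, adjusted p = 0.00627). Txnip (-0.68), Nr4a1 (-0.16), Mmrn1 (0.19) and Socs2 (0.35) were not called.

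**Figure D5:**
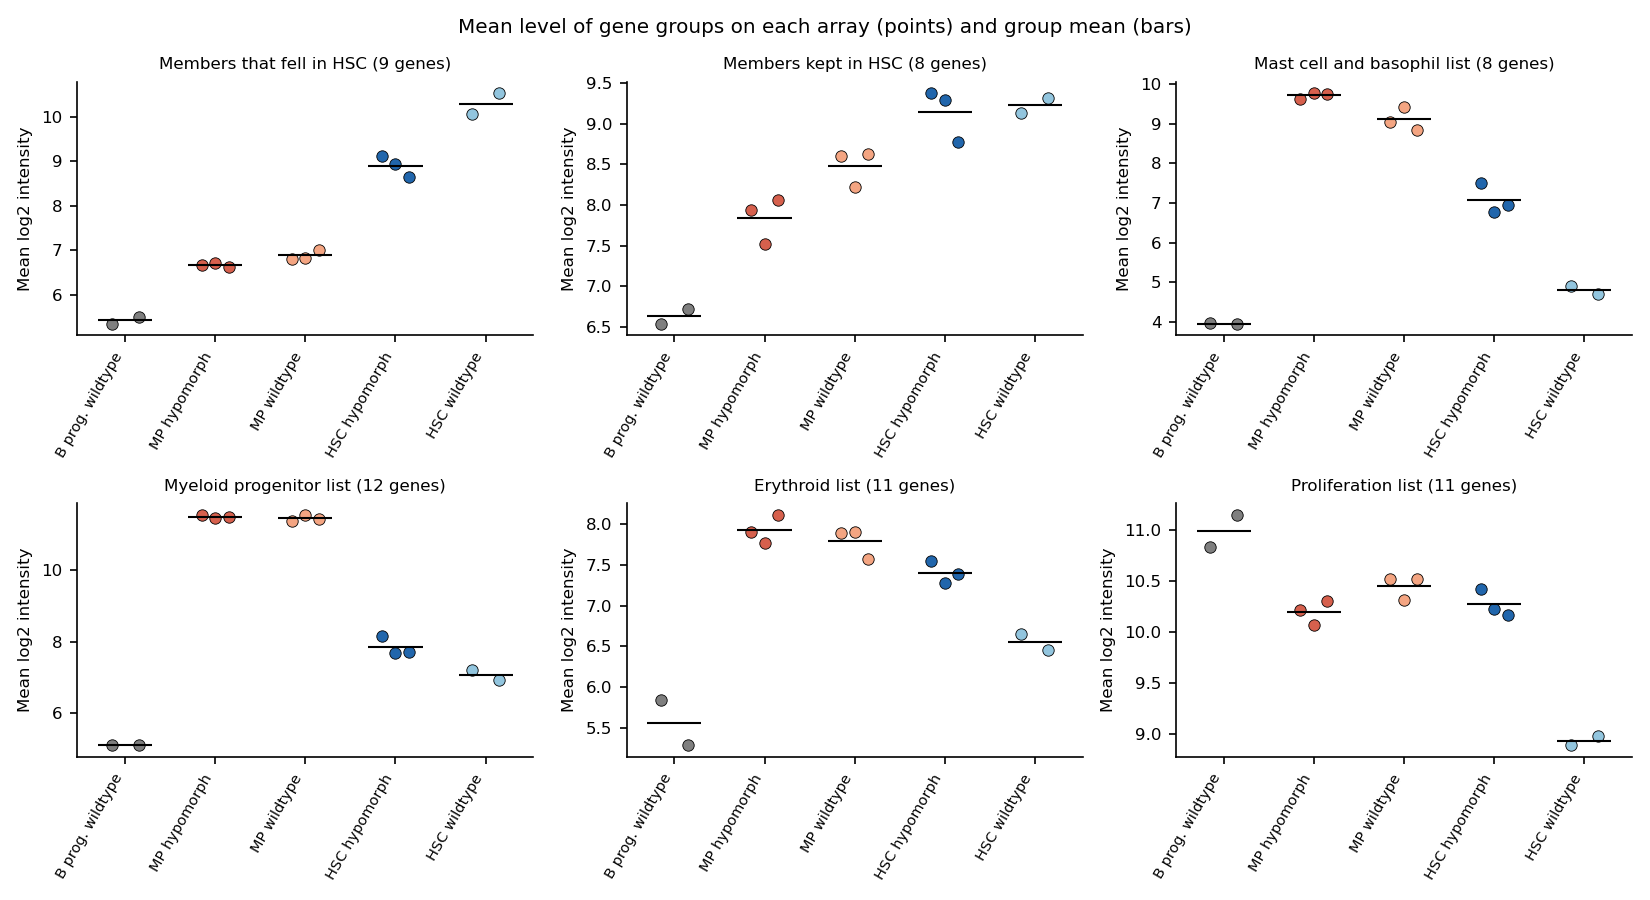
Mean log2 intensity of 6 gene groups on each array (points) with the group mean (bars): members that fell in HSC, members kept in HSC, and the mast cell and basophil, myeloid progenitor, erythroid and proliferation lists. The first 2 groups were chosen from the HSC comparison, and in the other 4 the hypomorph HSC arrays lie above the wildtype HSC arrays, for mast cell and basophil genes at 6.77 to 7.51 against 4.70 to 4.92.

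Genes of the same state that are not members were taken from lists of stem cell regulators and stem cell genes. Of 19 tested regulators, 1 fell in hypomorph HSC and none rose. It was Runx1, the core binding factor needed to form blood stem cells, at -1.12 (SE 0.28, adjusted p = 0.0207), and the list's median was -0.47. Of 25 tested stem cell genes, 6 fell and 1 rose, with a median of -0.70. Ndn, which encodes the imprinted growth suppressor necdin, was lowest at -2.63 (SE 0.23), followed by Ldhd, a D-lactate dehydrogenase, at -1.91 (SE 0.33). These shares of 5.26% and 24.0% stand beside 27.3% for the members and 5.41% for all genes. The members and both lists were chosen with earlier results of these data known, so the shares are no independent support for the falls.

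Genes on lists of other cell types, and on a list of proliferation genes, moved in hypomorph HSC at the same time. Of 8 mast cell and basophil genes tested, 7 rose, led by the carboxypeptidase Cpa3 (3.34) and the chymase Cma1 (3.25). The mean level of the list was 6.77 to 7.51 in hypomorph HSC, against 4.70 to 4.92 in wildtype HSC, and 8.86 to 9.78 over all MP arrays. Of its 8 genes, 1 was below the filter value on every hypomorph HSC array and 3 were on every wildtype HSC array. Of 11 proliferation genes, 8 rose and none fell, among them the checkpoint kinase gene Bub1 (2.74) and the ribonucleotide reductase gene Rrm2 (2.04), and the list's mean level was 10.17 to 10.42 in hypomorph HSC, against 8.89 to 8.98 in wildtype HSC.

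Of 12 myeloid progenitor genes, 3 rose in hypomorph HSC and none fell, among them the granule protease Ctsg (3.42) and Ms4a3 (3.27). Called or not, 6 of the 12 lay above 0 and 6 below, Irf8 (-0.81) and Csf1r (-0.71) among them, with a median of 0.25. The list thus did not move as a whole. Its mean level was 7.68 to 8.15 in hypomorph HSC, against 6.92 to 7.19 in wildtype HSC. Of 10 erythroid genes, 3 rose and none fell, among them Rhag (2.63), part of the Rh complex of red cells, and the factor Gata1 (1.33), and the list stood at 7.27 to 7.54 in hypomorph HSC, against 6.46 to 6.66 in wildtype HSC. By these list means the hypomorph and wildtype HSC arrays did not overlap, and the part of these lists in the falls of the stem cell identity genes was not tested.

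The remaining lists had 1 or 2 called genes each. Of 10 early progenitor genes 1 rose, the SLAM family ligand Cd48 (1.61, SE 0.35), and of 7 megakaryocyte genes 1 fell, the platelet chemokine Ppbp (-1.86). Called or not, 6 of the 10 early progenitor genes lay below 0 and 4 above, with a median of -0.12. Of the 7 megakaryocyte genes, 4 lay below 0 and 3 above. Of 9 B lineage genes 2 fell, Cd79b (-0.89) and Igll1 (-0.77), and called or not 7 lay below 0 and 2 above. Of 4 stroma genes Col1a2 fell (-1.35), while the other 3 lay above 0 and were not called, and the list's median was 0.29. Of 3 tested genes on the T and NK cell list, Thy1 rose (1.12), while Cd3e (-0.07) and Cd8a (-0.01) were not called. Thy1 was at 7.22 to 7.62 in wildtype HSC, against 4.65 to 5.29 in wildtype MP, so its level in HSC was not that of the list. It also rose in hypomorph MP (1.22, adjusted p = 0.0247). The mean level of the B lineage list was 4.75 to 4.92 in hypomorph HSC, against 5.18 to 5.32 in wildtype HSC, near the filter value in either genotype.

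Of the 34 members, 19 had more than 1 probe set, and 56 of the 71 probe sets passed the filter. Of 23 further probe sets of tested members, 18 had the sign of the one used in HSC.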

How the data were processed

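Total RNA of sorted marrow cells was measured on Affymetrix arrays. Per the submitters' processing notes the authors computed RMA values, of a version not given in the sources used here, and the deposited values were taken to be log2 intensities because they range between 1.93 and 14.99. The authors deposited 13 columns of a first normalization, used throughout, and 11 of a second. A label's columns in the first and second normalization correlated at 0.9987 or more, and columns of different labels at 0.9949 or less, so the second was used only as an alternative and 0 columns were left out.

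Each gene was represented by its probe set with the highest mean, among 34958 probe sets with 1 symbol, where 2 or more arrays had a value of 4.64 (the overall median) or higher. Detection calls were not used. A limma 3.58.1 model in R 4.3.3 with 5 groups and 8 residual degrees of freedom gave all contrasts. Benjamini and Hochberg adjustment was over 12745 genes, with a threshold of 0.05. The calling was also run on simulated arrays with independent noise and no differences between cell types. That run cannot show how the calls behave where whole arrays deviate, as some do here. Probe sets were fitted apart, with adjustment over 22122. The members and gene lists were chosen with earlier results of these data known. Array by array values are given for members called in a genotype comparison or in the difference of effects, the 4 uncalled members with the narrowest and the 2 with the largest HSC difference, up to 2 called genes of each other list are named, and up to 3 members in each direction between cell types. Kit, Gata3, Eif2s3y, Cdh5, Lyve1, Egfl7, Plvap, Flt1, Flt4, Ptprb and the further probe sets described were singled out after their values were seen. The alternatives were leaving out each array, the second normalization, a block by replicate number, a fit of only the arrays compared, array weights, a trended and robust prior, a filter at 7.10 or none, centred arrays, and the mean of all probe sets.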

Additional observations from a re-analysis of the deposited data

Results flagged for a closer look

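The genotype effect differed between HSC and MP, by a test of the difference itself in limma, for 5 of the 33 members. The HSC effect minus the MP effect was -2.62 for Socs2, -1.99 for Egr1, -1.76 for Pdzk1ip1, -1.44 for Tgm2 and 1.51 for Slamf1. For Egr1 the hypomorph arrays lay below wildtype in HSC, at 11.03 to 11.26 against 11.99 to 12.73, and above wildtype in MP, at 9.00 to 9.46 against 8.15 to 8.77. For Slamf1 the order was turned, with hypomorph arrays at 9.20 to 9.23 against 8.03 to 8.30 in HSC and at 7.31 to 7.89 against 7.97 to 8.31 in MP. The MP difference of Slamf1 was not called, and a second probe set gave 0.99 in HSC and 0.02 in MP. The values of Socs2, Tgm2 and Slamf1 moved by over 1.5 times when the mean of their probe sets was used, to -0.80, -0.88 and 0.83, and those calls were then lost. Other settings also ended the calls of Tgm2, lost in 6 of 22 in all, and Slamf1, lost in 4 of 22.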

How the results depend on the processing

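The number of members that fell in hypomorph HSC, 9, was 1 with only the arrays compared, which leaves 3 residual degrees of freedom, and 2 to 9 when 1 array was left out, while those that rose, 1, were 0 and 0 to 2. All genes called lower and higher then numbered 57 and 82, and 200 to 963 and 253 to 833. Array weights, for which the fit warned that it had not converged, gave 2 members higher and 1193 and 1153 genes in HSC, 15 lower and 4 higher members and 2776 and 1839 genes in MP, 7 and 7 members and 1923 and 2009 genes for the difference of effects, and 3493 and 2557 genes between hypomorph MP and HSC. Whether the replicate numbers pair the arrays is unknown. In their deviations from the group means, same-numbered arrays of the 2 genotypes correlated between -0.199 and 0.301, and differently numbered ones between -0.383 and 0.426. The 2 wildtype HSC arrays deviate by equal and opposite amounts, so the HSC values cannot show or exclude pairing. Same-numbered HSC and MP arrays were not compared. With the number as a block, 419 genes were lower in HSC, 0 members were higher in MP, and the difference of effects called 0 members higher and 144 and 231 genes. The block left 6 falls in HSC. In MP only the arrays compared gave 2 members higher and 84 and 80 genes, no filter gave 0 and centring 2 members higher, and leaving out 1 array gave 0 to 4 members lower, 0 to 2 higher, and 16 to 109 and 21 to 75 genes. For the difference of effects the filter at 7.10 gave 197 genes lower, the mean of probe sets 0 members higher, and leaving out 1 array 3 to 5 and 0 to 2 members and 88 to 546 and 153 to 908 genes. Between B progenitors and HSC centring gave 2485 lower and 3350 higher genes. Leaving out 1 array gave 26 to 28 lower and 1 higher members and 3012 to 4111 and 1368 to 2042 genes there, 21 to 28 and 0 members and 604 to 1406 and 368 to 611 genes between hypomorph MP and HSC, and 16 to 22 and 0 members and 1388 to 2527 and 1160 to 2022 genes between wildtype MP and HSC.

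Signs turned for members near 0 that were not called. In HSC the second normalization gave Angpt1 0.087, Ctnnal1 -0.11, Erg -0.015 and Gata3 -0.15, the block gave Ctnnal1 -0.031, Kit 0.038 and Vldlr -0.0079, and array weights gave Abcg2 0.33, Angpt1 0.28, Cd34 0.083, Gata3 -0.13, Kit 0.076, Meis1 0.25, Mmrn1 0.12 and Txnip 0.064. The mean of probe sets gave Ctnnal1 -0.039, Erg -0.052 and Vldlr -0.45, and centring gave Angpt1 0.0078 and Kit 0.061 in HSC and Emcn 0.018 in MP. Leaving out 1 array spanned -0.58 to 0.36 for Abcg2, -0.24 to 0.19 for Angpt1, -0.51 to 0.37 for Cd34, -0.57 to 0.23 for Cd9, -0.21 to 0.35 for Ctnnal1, -0.21 to 0.33 for Erg, -0.55 to 0.57 for Gata3, -0.46 to 0.48 for Kit, -0.18 to 0.031 for Nr4a1, -0.37 to 0.091 for Txnip and -0.59 to 0.90 for Vldlr in HSC, and -0.26 to 0.045 for Emcn and -0.25 to 0.051 for Robo4 in MP. The cause of these changes was not tested. The trended and robust prior moved no count of members by over 1.5 times. Centring moved the median of all genes in HSC to -0.04, against -0.11 without it. Dim members such as Emcn and Sox17 lie near background, where intensity understates a change.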
